A study of Mus musculus with 2 samples.

Results

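EHMT2 peaks whose summit sits on a short tandem repeat were taken from the deposited ChIP-exo peak list of EHMT2-dTAG mESCs. A peak was counted when, in the window that reaches 50 bp to either side of its summit, at least 0.80 of the bases equalled the base 1 period further on, for any period from 1 to 6 bp, and it was classed by the shortest such period and by the unit repeated. The rule reads only the reference sequence and uses no measure of peak strength. It was met by 179 of the 12541 peaks on chromosomes 1 to 19 and X (1.43%, 95% Wilson interval 1.23 to 1.65%), of 12556 peaks deposited in all. The deposited list is shorter than the peak number in the study, and every share here refers to the deposited list. None of the 13 peaks on chromosome Y met it, and the 2 peaks on the mitochondrial genome were not analysed further.

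EHMT2 (G9a) is a histone methyltransferase that places mono- and dimethylation on lysine 9 of histone H3. It has no DNA-binding domain of its own for a given sequence and is believed to be brought to its target genes by partner proteins. Short tandem repeats are runs in which a unit of a few bases follows itself head to tail. They lengthen and shorten readily when DNA is copied, mouse genomes are rich in them, and the telomere is itself a tandem array of the unit TTAGGG. Purine-rich arrays, with G and A on a single strand, are known for adopting unusual DNA structures in vitro.

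Occupancy was measured in a single group of 2 replicates of the EHMT2-dTAG-mcherry line, derived from KH2 ESCs and labelled as BL6/129 hybrid (C57BL/6J x 129S1 F1 in the methods), after 24 h in DMSO, the vehicle of the degrader. In these cells both Ehmt2 alleles carry, at the stop codon, an FKBP12F36V degron with 2xHA, followed by P2A and an NLS-mCherry reporter, and the cells were grown on feeders with FBS and LIF. Chromatin was precipitated with an antibody against HA, and an exonuclease trimmed the DNA in the ChIP-exo protocol. The replicates' fragments were pooled ahead of peak calling, and neither a control antibody nor EHMT2-depleted cells are among the libraries analysed here, so the values below have no replicate error and no test over samples could be made. Intervals are 95% intervals and cover counting error only. Where a count is 0, the limit that it allows is that of 3 counts, which is smaller than the upper end of such an interval. The peak list holds no expression values against which the labelled cell type could be checked. Across the 12541 peaks the whole-number pileup behind each summit could be recovered from the deposited fold and p-value, and 35.7% of summits rested on 6 or fewer fragments.

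The sequences of the summits show what the rule gathered. The largest set was made of triplets in which GGA alternated irregularly with GCA. The first 5 windows below are the strongest of these by q-value, and the sixth is the strongest member with the plain AGG unit, shown for contrast. They are read from GRCm38 on the plus strand, and capitals mark GCA or, where the purine strand is the minus strand, TGC. They lie in an intron of Rasgef1b (chr5:99572576-99572676), in an intron of Cdk18 (chr1:132131426-132131526), 18180 bp from Gpr50 (chrX:71645437-71645537), 384092 bp from Adgrl2 (chr3:148431441-148431541), in an intron of Cradd (chr10:95221034-95221134) and 64433 bp from Magi1 (chr6:93610972-93611072).
Rasgef1b: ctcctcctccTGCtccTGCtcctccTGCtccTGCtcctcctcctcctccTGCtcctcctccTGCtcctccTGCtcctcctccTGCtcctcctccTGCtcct
Cdk18: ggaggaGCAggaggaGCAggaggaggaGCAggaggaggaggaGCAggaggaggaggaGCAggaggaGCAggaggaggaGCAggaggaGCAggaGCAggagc
near Gpr50: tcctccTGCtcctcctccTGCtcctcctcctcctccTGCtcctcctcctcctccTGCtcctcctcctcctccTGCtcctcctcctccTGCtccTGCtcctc
near Adgrl2: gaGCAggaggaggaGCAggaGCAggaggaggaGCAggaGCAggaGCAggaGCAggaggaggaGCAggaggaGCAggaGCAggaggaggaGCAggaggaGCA
Cradd: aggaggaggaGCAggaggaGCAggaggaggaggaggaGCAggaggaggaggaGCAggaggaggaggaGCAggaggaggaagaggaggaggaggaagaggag
near Magi1, plain AGG: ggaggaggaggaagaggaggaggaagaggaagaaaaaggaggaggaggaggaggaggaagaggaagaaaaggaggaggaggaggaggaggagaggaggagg

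The other windows shown are a member of the telomeric unit and the strongest member of each further unit with at least 5 members. Capitals mark bases inside an exact copy of the unit on either strand. They lie in introns of Ttc21b (chr2:66189342-66189442) and Laptm5 (chr4:130933034-130933134) and between genes, with Sv2b (chr7:74994665-74994765), Swap70 (chr7:110294169-110294269), Sox14 (chr9:99989277-99989377) and Obp2b (chr2:25741097-25741197) as the nearest protein-coding genes.
Ttc21b, telomeric: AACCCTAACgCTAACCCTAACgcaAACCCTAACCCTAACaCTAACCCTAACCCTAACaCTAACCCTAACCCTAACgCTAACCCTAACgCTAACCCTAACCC
near Sv2b, AC: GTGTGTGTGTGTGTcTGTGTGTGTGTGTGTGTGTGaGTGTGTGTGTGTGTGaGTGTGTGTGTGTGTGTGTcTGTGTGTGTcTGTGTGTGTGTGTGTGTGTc
near Swap70, AAG: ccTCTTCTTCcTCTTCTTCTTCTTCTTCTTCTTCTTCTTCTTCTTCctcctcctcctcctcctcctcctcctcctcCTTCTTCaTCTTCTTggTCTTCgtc
near Sox14, ACACAG: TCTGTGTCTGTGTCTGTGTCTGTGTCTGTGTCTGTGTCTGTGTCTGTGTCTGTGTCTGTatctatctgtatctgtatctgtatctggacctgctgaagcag
Laptm5, ATCC: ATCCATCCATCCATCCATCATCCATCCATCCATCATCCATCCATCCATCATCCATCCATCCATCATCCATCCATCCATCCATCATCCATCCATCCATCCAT
near Obp2b, AGAT: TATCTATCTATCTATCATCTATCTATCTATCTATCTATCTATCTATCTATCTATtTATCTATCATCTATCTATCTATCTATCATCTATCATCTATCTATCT

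Tandem repeats formed a small tail of the peak list. The highest share over the 6 periods had a median of 0.333 over all peaks, and 88.2% of peaks were under 0.40. From 0.75 to just under the threshold there were 36 peaks, from 0.80 to just under 0.85 there were 60, and 50 peaks reached 0.90 or more. At the threshold itself, a share of 0.80, there were 9 members, all hexanucleotide repeats, with 4 to 15 fragments. The closest peaks outside it had shares of 0.798 (4 fragments, on chromosome 9) and 0.796 (5 fragments, on chromosome 18). The histogram of the highest share shows no empty gap at the threshold.

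**Figure D1:**
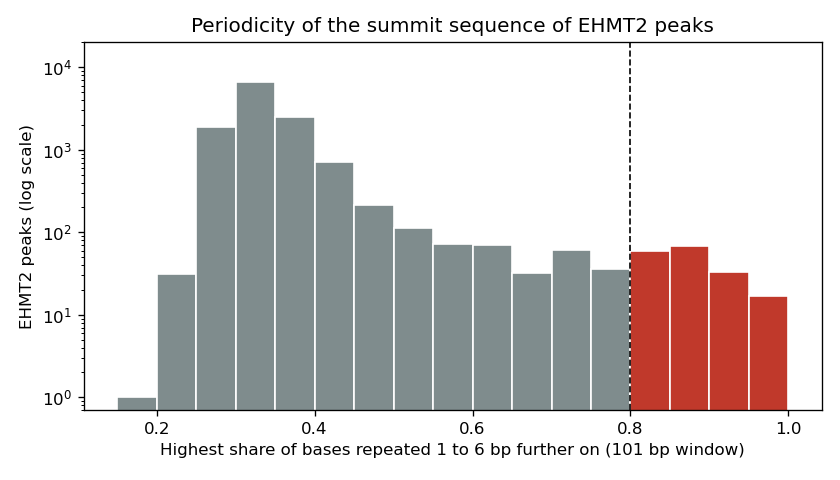
Number of EHMT2 peaks on chromosomes 1 to 19 and X (vertical axis, log scale) by the highest share of bases that recur 1 to 6 bp further on in the window around the summit (horizontal axis, bins of 0.05). The dashed line marks the threshold of 0.80, red bars are the 179 peaks that meet the rule, and 11057 peaks lie under 0.40.

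The question that a census of the genome answers is how often such sequence would be met without regard to peaks. Every window of the same size without N on the same chromosomes was put through the same rule. Of 2559350582 positions, 12063664 met it, which is 0.471%, against 1.43% of summits. Summits were therefore 3.03 times as frequent on tandem repeats as positions were (2.62 to 3.50), or 14.8 summits per Mb of such sequence (12.7 to 17.2) against 4.90 per Mb of all sequence (4.81 to 4.99). Under each threshold, window, q-value and merging alternative tried the ratio stayed above 1, between 1.78 with windows of 25 bp and 6.23 with windows of 100 bp to either side.

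Period set the members apart from the tandem repeats of the genome. Hexanucleotide repeats gave 72 members (40.2%, 33.3 to 47.5%) and held 14.8% of the positions that met the rule. Trinucleotide repeats gave 57 members (31.8%, 25.5 to 39.0%) from 11.7% of positions. Tetranucleotide repeats held 39.0% of positions and gave 26 members (14.5%, 10.1 to 20.4%). Dinucleotide repeats held 25.1% of positions and gave 13 members (7.26%, 4.29 to 12%), and pentanucleotide repeats held 9.49% and gave 11 (6.15%, 3.47 to 10.7%). Classes follow the shortest period that met the rule, so dinucleotide repeats that missed it at 2 bp can fall under 4 or 6 bp. Period 4 included 0.554 Mb of AGAG and 0.248 Mb of ACAC, and period 6 included 0.161 Mb of AGAGAG and 0.104 Mb of ACACAC. The abundance of dinucleotide and tetranucleotide repeats can therefore not be ranked from these shares. For periods of 3 and 6 bp the genome share lies below the interval of the members, and for periods of 2 and 4 bp above it. Per Mb, periods of 3 and 6 bp had 40.5 (30.6 to 52.4) and 40.4 (31.6 to 50.8) summits, and periods of 2 and 4 bp had 4.30 (2.29 to 7.36) and 5.53 (3.61 to 8.10). Single-base runs had 0 members, but only 2992 positions of the genome met the rule with a period of 1 bp.

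**Figure D2:**
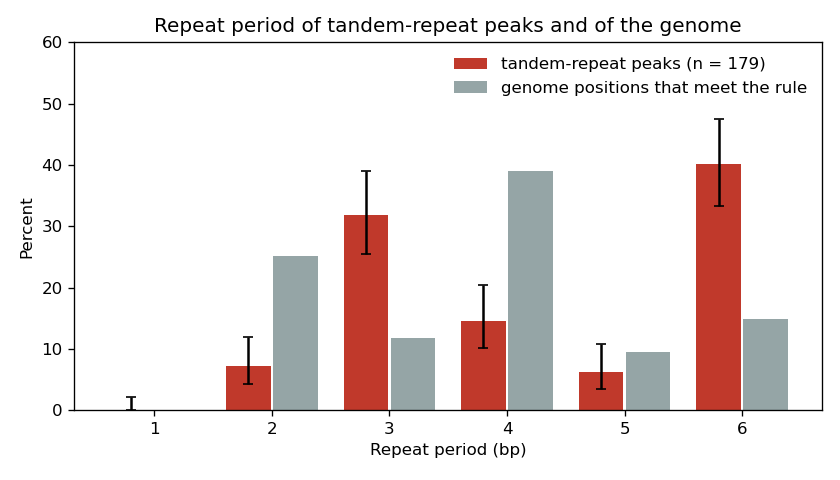
Percent of the 179 tandem-repeat peaks (red, with 95% Wilson intervals) and of the 12063664 genome positions that meet the rule (grey, a complete count) by repeat period in bp. Periods of 3 and 6 bp make up 31.8% and 40.2% of the peaks but 11.7% and 14.8% of the positions, and periods of 2 and 4 bp the reverse.

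By unit, taken as equal over rotation and strand, the members fell into 51 classes, 21 of them with a single member. Units were not reduced to a shorter form, so AC, ACAC and ACACAC are separate classes. The unit of 5 members would be shorter if reduced. Units with at least 5 members numbered 7 and held 102 of the 179 peaks. AGG came first with 43 members (24.0%), followed by AGCAGG with 16 (8.94%), AC with 11, AAG with 10, ACACAG with 9, ATCC with 8 and AGAT with 5. At share thresholds of 0.85 and 0.90 AGCAGG came first, with 18.5% and 16.0% of members. The order of the units changed when the amount of each repeat in the genome was counted. AGCAGG had 335 summits per Mb (191 to 544) on 0.0478 Mb of sequence. ACACAG had 132 (60.5 to 251), AGG 98.8 (71.5 to 133) and ATCC 74.6 (32.2 to 147). AAG had 11.4 (5.46 to 21.0), AGAT 8.93 (2.90 to 20.8) and AC 8.13 (4.06 to 14.5), and the intervals of AGAT and AC include the 4.90 per Mb of the whole genome.

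Several of the larger repeat classes had few or no summits. AAAG, with 1.59 Mb the largest class, had 3 members (1.89 per Mb, 0.390 to 5.53), and AG, with 1.35 Mb, had 2 (1.48, 0.179 to 5.34). Sequence that repeats AG was also counted under AGAG (0.554 Mb, 0 members) and AGAGAG (0.161 Mb, 1 member), and AC was split likewise. The amounts and densities given for AG and AC therefore cover part of each repeat. AAAG is the largest class only while such classes are kept apart. AAGG, on 0.926 Mb, had 0, where a count of 0 allows up to 3.24 per Mb. AGGG had 0 on 0.368 Mb (up to 8.16 per Mb), and AT had 0 on 0.314 Mb (up to 9.56 per Mb). Of the ranges and limits given here, only that of AAGG lay below the 4.90 per Mb of the whole genome. The others include it, so a density below that of the genome was not shown for them. In all, 13 units with at least 100 kb of sequence each had no member, over 3.81 Mb or 31.5% of the positions that met the rule. They were picked by that count of 0. Among them were AGAG (0.554 Mb) and ACAC (0.248 Mb), which repeat AG and AC, units that did have members. Another of the 13, AGAGGC, had a median of 21388 copies of the 50-mer of its tracts, more than the 5000 sites up to which the aligner kept a read. AAGAG and AGAGG had medians of 1163 and 1069 copies, whereas AGGG and AT had 2.

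Within the AGG class, summits went with the GCA triplet. For this description, decided after the sequences had been seen, hexamers equal to AGCAGG over rotation and strand were counted at the 96 start positions of each window, and a window with 10 or more of them was called a GGA/GCA array. Of the 43 AGG members 37 were such arrays, 6 had no such hexamer and 0 lay between. In the genome the proportions were the other way round: 81.8% of AGG positions had no such hexamer and 12.6% had 10 or more. This gave 674 summits per Mb of AGG sequence with the hexamer (475 to 929) and 16.9 per Mb of AGG sequence without it (6.18 to 36.7).

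Together with the 16 AGCAGG members, 1 AGC member and 1 AGGAGG member, GGA/GCA arrays made up 55 of the 179 members (30.7%, 24.4 to 37.8%), whereas they held 1.00% of the positions that met the rule. Among the members whose 50 bp at the summit is unique in the assembly the share was 16.9%, an alternative chosen after seeing the data. Their windows contained between 18 and 84 of the hexamers, with a median of 48. The density was 455 summits per Mb on these arrays (343 to 592) and 10.4 per Mb on all other tandem repeats (8.64 to 12.4), a ratio of 43.8. The purine strand was the plus strand in 29 of the arrays and the minus strand in 26. Over the whole genome, windows with 10 or more of the hexamers held 0.0229% of positions and 82 of the 12541 summits (0.654%, 0.527 to 0.811%), 28.5 times as many per position (23.0 to 35.4). The 27 of these summits that are not members had a highest share between 0.316 and 0.779 and a median of 8 fragments (5 to 30), and 19 of them lay in introns.

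Length of the run of passing positions went with the presence of a summit. A run is defined here as an unbroken stretch of positions that meet the rule, and 257949 such runs exist on these chromosomes. Each position is the centre of a window that reaches 50 bp to either side. The length of a run is therefore not that of the repeat array itself, which was not measured. Of runs under 50 bp 0.0105% held a summit, of runs from 100 to under 200 bp 0.129%, of runs from 400 to under 800 bp 6% (4.54 to 7.89%), and of the 75 runs of 800 bp or more 16.0% (9.40 to 25.9%). Counted per Mb, so that longer runs have no advantage by size alone, summits went from 6.10 (3.62 to 9.65) to 157 (83.5 to 268). The run around the median member measured 254 bp, with quartiles at 102 and 491 bp and extremes of 10 and 1924 bp.

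GGA/GCA runs, those with at least 50% of their positions in such arrays, were occupied more often than other runs at matched length. From 200 to under 400 bp a summit was present in 17 of 108 GGA/GCA runs (15.7%, 10.1 to 23.8%) and in 26 of 5455 others (0.477%, 0.325 to 0.697%). At 400 bp or more it was present in 34 of 78 GGA/GCA runs (43.6%, 33.1 to 54.6%) and in 25 of 780 others (3.21%, 2.18 to 4.69%). Shorter GGA/GCA runs had few summits. From 100 to under 200 bp there were 2 in 142 runs (1.41%, 0.387 to 4.99%), against 0.122% of others (0.0854 to 0.174%). Under 50 bp there was 1 in 850 runs (0.118%, 0.0208 to 0.663%), against 0.01% of others (0.00624 to 0.016%). From 50 to under 100 bp there were 0 in 107 runs, too few for a comparison with the 0.0466% of others. By the leading unit of the run, 38 of 377 AGG runs of 200 bp or more held a summit (10.1%, 7.43 to 13.5%), as did 16 of 79 AGCAGG runs (20.3%, 12.9 to 30.4%), 6 of 71 ATCC runs (8.45%, 3.93 to 17.2%) and 4 of 91 ACACAG runs (4.40%, 1.72 to 10.8%). AC runs of that length had 8 of 699 (1.14%, 0.581 to 2.24%), AAG runs 6 of 1086 (0.552%, 0.253 to 1.20%), AAAG runs 0 of 1290 (up to 0.233%) and AAGG runs 0 of 426 (up to 0.704%).

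**Figure D3:**
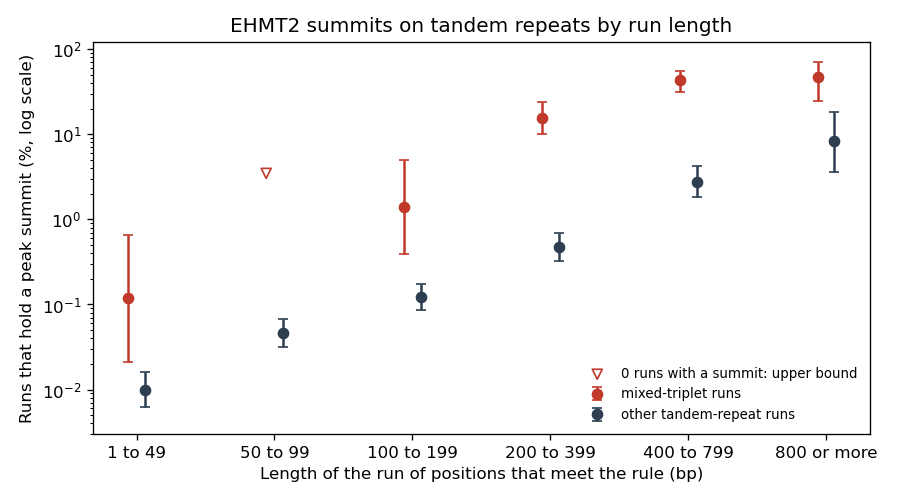
Percent of tandem-repeat runs that hold an EHMT2 summit (log scale) by length of the run, for runs with at least 50% of positions in GGA/GCA arrays (red, mixed-triplet runs) and for all other runs (dark), with 95% Wilson intervals. The open triangle is the upper Wilson bound where 0 of 107 runs held a summit, and the red points reach 42.9% and 46.7% at 400 to under 800 bp and at 800 bp or more, where the dark points reach 2.78% and 8.33%.

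Where exactly a summit falls within a run carries little information here. In the 135 members whose run was 100 bp or longer, the summit lay in the middle 50% of the run in 70 (51.9%, 43.5 to 60.1%), in the first 25% in 37 and in the last 25% in 28. A single run held more than 1 summit, in an intron of Tenm3 on chromosome 8, where both units were AGG and the summits lay 750 bp apart. A pair of ATCC members lay 288 bp apart on chromosome 2, at 167750948 and 167751236.

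The place of a read within repeated sequence is uncertain, since the aligner wrote each read with several equal best sites to a randomly chosen one, so the uniqueness of the summits was measured. The 50 bp at the summit had a median of 5 exact copies in the assembly (quartiles 1 and 28.5), against 672 (89 and 1755) for the 10031 other peaks with at least 50% soft-masked bases, called other repeat peaks here, and 1 (1 and 2) for the 2331 repeat-poor peaks. Of the members 59 had a unique 50-mer (33.0%, 26.5 to 40.1%) and 34 had over 100 copies (19%), whereas 74.0% of other repeat peaks had over 100. At 100 bp 172 of the 179 members were unique (96.1%, 92.1 to 98.1%), against 20.1% of other repeat peaks. Over 5000 copies, the number of sites up to which the aligner kept a read, were found for 2 members.

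**Figure D4:**
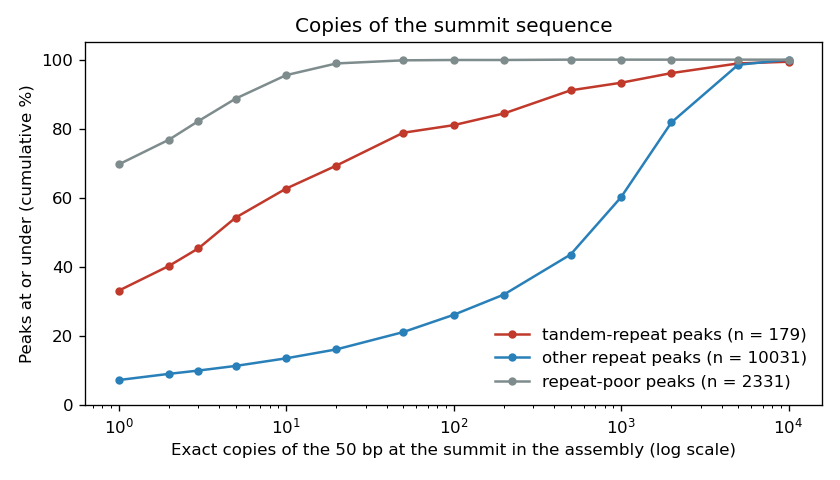
Cumulative percent of peaks (vertical axis) by exact copies of the 50 bp at the summit in the assembly (horizontal axis, log scale), for 179 tandem-repeat peaks, 10031 other repeat peaks and 2331 repeat-poor peaks. The curve of the tandem-repeat peaks starts at 33.0% unique and runs between the other curves up to 5000 copies.

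Among the GGA/GCA members all 55 were unique at 100 bp, 10 were unique at 50 bp, and the median was 6 copies. The density of summits differed with the copies of a tract's middle 50-mer, though not in 1 direction. It was 14.8 summits per Mb (11.1 to 19.4) for unique tracts, 40.4 (31.3 to 51.3) for 2 to 10 copies, 17.3 (11.3 to 25.4) for 11 to 100 and 6.19 (4.26 to 8.69) for over 100. The contrast between units was therefore also read among tracts with at most 10 copies. There AGG had 149 summits per Mb (104 to 206), AC 12.8 (6.16 to 23.6), AAG 35.1 (12.9 to 76.4) and AAAG 1.90 (0.0481 to 10.6), while AGGG and AAGG had 0, which allows up to 15.9 and 8.11. Of runs of 400 bp or more with at most 10 copies, 25 of 60 GGA/GCA runs held a summit (41.7%, 30.1 to 54.3%) and 20 of 481 others (4.16%, 2.71 to 6.33%). The part of read placement in these densities was not tested.

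Members rested on fewer fragments than other repeat peaks. The median pileup was 6 fragments in members (quartiles 5 and 8), 9 in other repeat peaks (6 and 18) and 6 in repeat-poor peaks (5 and 7). The median fold enrichment was 4.98 (4.31 and 6.08), 5.36 (4.48 and 7.91) and 4.54 (3.79 and 5.41) in the same order. It is the authors' ratio of pileup to local background, with 1 added to each. The recovered background had medians of 0.413, 0.924 and 0.407 fragments, so the added 1 carries weight. A ratio without it was not computed, and the order of the groups could differ there. A pileup of 10 or more fragments was found for 24 members (13.4%, 9.18 to 19.2%), for 46.0% of other repeat peaks and for 10.5% of repeat-poor peaks. A q-value of 0.001 or lower was reached by 104 members (58.1%, 50.8 to 65.1%), below the 65.4% of all peaks, with 70.6% of other repeat peaks and 43.2% of repeat-poor peaks. The median width was 194 bp in members (152 and 283 bp), 237 bp in other repeat peaks and 170 bp in repeat-poor peaks. Of the members 0 were 1 kb or wider, which allows up to 1.68%, against 8.05% of other repeat peaks and 0.0858% of repeat-poor peaks. GGA/GCA members had a median of 7 fragments (6 and 8.5) and reached a q-value of 0.001 or lower in 39 of 55 (70.9%, 57.9 to 81.2%), other members a median of 6 (5 and 8) and 65 of 124 (52.4%, 43.7 to 61.0%).

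By far the strongest member was intronic to Flt1, the gene of a VEGF receptor (ENSMUSG00000029648.13), and belonged to the class of the telomeric unit. It had 302 fragments over a background of 4.78, a fold enrichment of 52.4 and a −log10 q of 409, the highest of all 12541 peaks, while the next member had 15 fragments. The other telomeric member, in an intron of the ciliary gene Ttc21b on chromosome 2 from 66189299 to 66189452, had 10 fragments and a fold enrichment of 7.79. Of 30 runs of 100 bp or more made mostly of the telomeric unit, 2 held a summit. Outside the members, 5 further peaks had 10 or more telomeric hexamers in their window, with 4 to 15 fragments, and such windows held 0.00848% of genome positions and 0.0558% of summits. The 50-mer at the Flt1 summit had 6 copies in the assembled chromosomes, and copies outside them were not counted. Without Flt1 the members' fold enrichment ranged from 3.46 to 11.3 and the median remained 4.98.

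The next members in q-value had 10 to 15 fragments. In the promoter of Gm15262 on chromosome X, 296 bp from its start site, a hexanucleotide repeat had 15 fragments and a fold enrichment of 11.3, with 1591 copies of its 50-mer. Another hexanucleotide repeat, 4731 bp from the zinc-finger gene Zbtb40 on chromosome 4, had 15 fragments and a fold enrichment of 10.4, with 2332 copies. GGA/GCA arrays followed, in introns of Rasgef1b (chromosome 5, 99572513 to 99572728, fold enrichment 9.22), of the kinase gene Cdk18 (chromosome 1, 132131093 to 132131790, 8.85) and of Cradd (chromosome 10, 95220986 to 95221281, 7.72), and between genes near Gpr50 (chromosome X, 71645261 to 71645628, 9.09) and Adgrl2 (chromosome 3, 148431388 to 148431566, 8.17). These 5 had 11 to 15 fragments and between 3 and 30 copies. An ACAG repeat 7641 bp from the keratin gene Krt12 (chromosome 11, 99407837 to 99408209) had 10 fragments and a fold enrichment of 8.25, and an ACACAG repeat 113157 bp from Sox14 (chromosome 9, 99989233 to 99989616) had 10 and 7.96.

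The strongest members of the other leading units were weaker. The AAG repeat nearest Swap70 (chromosome 7, 110293940 to 110294226) had 12 fragments and a fold enrichment of 7.69. The ATCC repeat in an intron of Laptm5 (chromosome 4, 130932862 to 130933265), a lysosomal membrane protein gene of blood cells, had 12 and 7. For AGAT it was a repeat 1050 bp from Obp2b (chromosome 2, 25741048 to 25741330) with 10 fragments and 6.68, and for AC one 120179 bp from Sv2b (chromosome 7, 74994541 to 74994893) with 8 and 6.60.

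In relation to genes, 88 members lay in introns (49.2%, 41.9 to 56.4%), 85 between genes (47.5%, 40.3 to 54.8%), 5 in promoters (2.79%, 1.20 to 6.37%) and 1 in an exon, of Mlph. All positions that met the rule were 38.6% intronic, 55.5% intergenic, 5.17% in promoters and 0.729% in exons, and other repeat peaks were 29.3% intronic and 66.7% intergenic. The members' intronic share is thus above, and their intergenic share below, that of both. It is not particular to members, since repeat-poor peaks were 48.3% intronic and 32.8% intergenic. Of all positions without N, 40.6% were intronic and 49.5% intergenic, the latter inside the members' interval. GGA/GCA members were intronic in 32 of 55 (58.2%, 45.0 to 70.3%), against 44.4% of the positions in such arrays. The other 124 members were 45.2% intronic (36.7 to 53.9%) and 52.4% intergenic (43.7 to 61.0%). These intervals include the 38.5% and 55.6% of the positions that met the rule outside such arrays, so no shift was shown for these members alone. The distance to the nearest protein-coding gene had a median of 4865 bp in members, 60161 bp in other repeat peaks and 0 bp in repeat-poor peaks. Inside such a gene lay 78 members (43.6%, 36.5 to 50.9%). The share was 33.6% of the positions that met the rule, 24.8% of other repeat peaks and 55.1% of repeat-poor peaks.

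Promoters of protein-coding genes held 3 members. Beside Gm15262 these were GGA/GCA arrays near Uros and Ctss. The array 791 bp from the start of Uros, a heme-synthesis gene, had its summit inside the neighbouring gene Bccip (chromosome 7, 133710647 to 133710970, 9 fragments, fold enrichment 6.33). The array 2261 bp from the start of Ctss, which encodes cathepsin S, had AGC as its unit and 41 of the GGA/GCA hexamers (chromosome 3, 95524454 to 95524596, 6 fragments, 4.81). Within 10 kb of an olfactory or vomeronasal receptor gene there were 2 members, and 1.68% of all peaks and 1.34% of the positions that met the rule lay there. Within 10 kb of a Zfp gene there were 0, which allows up to 1.68% of members, where all peaks had 0.590% and the positions 0.554%, so a difference was not detectable. Within 100 kb of a Zscan4 or Obox gene there were also 0 members, where all peaks had 0.0478% and 0.0718%.

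CpG dinucleotides, the usual target of DNA methylation, were scarce in the members. At least 1 CpG was present in the window of 20 members (11.2%, 7.35 to 16.6%), against 76.2% of other repeat peaks and 57.2% of repeat-poor peaks. Over all positions that met the rule the share was 11.9%, so the members did not differ from tandem repeats in general beyond counting error. GC had a median of 49.5% in members and 46.5% in positions that met the rule, and 66.3% in GGA/GCA members, where the positions had 65.3%. On the purine-richer strand 67 members had at least 90% purines. Units made only of purines, such as AAAG (13.1%) and AG (11.2%), are frequent among the positions that met the rule. The purine share of those positions was not computed, so the count does not show an enrichment.

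Members were spread over all 20 chromosomes. Per Mb of sequence that met the rule, chromosome 8 had the most summits, 21 members or 32.0 per Mb (19.8 to 48.9), and chromosome 15 the fewest, 2 members or 4.2 (0.508 to 15.2). Chromosome X held 1022 peaks but 4 members (0.391%, 0.152 to 1.00%), the lowest share of peaks, at 7.12 per Mb (1.94 to 18.2). Another summit of the list lay within 10 kb for 13 members (7.26%, 4.29 to 12%), for 21.5% of other repeat peaks and for 8.54% of repeat-poor peaks. Beyond the members, 236 other peaks (1.91%) held a position that met the rule away from their summit.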

How the data were processed

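Anti-HA ChIP-exo of EHMT2 was measured in 2 DMSO replicates of 1 group. By the study's methods and the submitters' processing notes, the authors trimmed reads, aligned them to mm10 with STAR 2.7.10 (up to 5000 sites and 3 mismatches, 1 random best site written), removed duplicates (Picard 2.26.0) and ENCODE High Signal Regions, and called peaks on merged replicates with MACS2 2.2.6 without a control, kept at q below 0.05. SAMtools 1.14, bedtools 2.30.0 and deepTools 3.5.1 are also listed. The deposited peak list gives positions and the summit offset, the authors' caller score, fold enrichment (a ratio) and −log10 p and q. The score was not used beyond reading it.

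Sequence and soft-masking came from GRCm38.p6, whose chromosome lengths equal those of mm10, and genes from GENCODE vM21. Pileups are whole numbers recovered from fold and −log10 p (1 solution within 0.0001 for 12549 of 12554 peaks, and for all 179 members). The census put every window through the rule (Python 3.11.15, numpy 2.4.6, numba 0.67.0). Exact copies were counted on both strands. A promoter spans 2.5 kb before and 0.5 kb after a gene's TSS. Shares carry Wilson and densities exact Poisson intervals (scipy 1.17.1). The classifier was tested on simulated sequence. Named peaks are the 10 with the highest −log10 q, the strongest of each unit with at least 5 members, those in protein-coding promoters and those just outside the threshold, while the 9 tied at it are given by their range; other names were chosen after their values were seen. The members, groups and lists were chosen with earlier results of these data known. The summit sequences of 3 members are not reported here.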

Additional observations from a re-analysis of the deposited data

How the results depend on the processing

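Of 86 values under the alternatives, 65 stayed within the interval of the value reported (or, for counts, within 1.5 times) and 21 moved outside it. Only the differences in median fold enrichment and in median fragments could change sign, and 0 of them did. The 65 include the share of the most frequent unit at a threshold of 0.85, although the unit itself changed there. The number of members was 119 and 50 at share thresholds of 0.85 and 0.90 and 104 with the q-value cut at 0.001. Periods up to 12 bp, an alternative chosen after seeing the data, gave 225. The ratio to genome positions was 2.48 and 2.46 at thresholds of 0.75 and 0.90, 1.78 with windows of 25 bp and 6.23 with windows of 100 bp to either side. The most frequent unit held 17.3% of members with windows of 25 bp to either side, and at 0.85 and 0.90 it was AGCAGG in place of AGG, with 18.5% and 16.0%. Median fragments were lower than in other repeat peaks by 3, which became a difference of -4 with the stricter q-value of 0.001. Promoters held 0% of members at a threshold of 0.90, and intergenic sequence 56.0% there and 39.4% with that q-value. The median copies were 22 at 0.90 and 1 with 100-mers. Of the tracts of the 7 leading units 102 of 106325 held a summit (0.0959%), which became 0.05% at 0.90, 0.0555% with that q-value and 0.366% in runs of 100 bp or longer. After seeing the data, 3 results on GGA/GCA arrays were also recomputed: they made up 16.9% of the members with a unique 50-mer, and with that q-value 30.8% of GGA/GCA runs and 1.41% of other runs of 400 bp or longer held a summit. For all of these the cause was not tested.

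No paired analysis was possible because there is 1 group, whose 2 replicates entered the peak caller as a single pool, and leaving out either of them was likewise impossible. Depth limits the list: 56.4% of members rest on 6 or fewer fragments. The soft-masking carries no element names, and copies outside the assembly are not counted.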
